A study of Mus musculus with 22 samples.

Results

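To follow how hypothalamic astrocytes respond to fibroblast growth factor 1 (FGF1), nuclei annotated as astrocytes were taken from a single-nucleus RNA-seq dataset by the cell type column of its metadata, which gave 1538 of 24965 nuclei. All mice were male ob/ob mice, which lack leptin, at 11 weeks of age. Each had 1 injection into a brain ventricle (icv), of 3 µg FGF1 or of vehicle, and vehicle mice were pair-fed to the intake of FGF1 mice. Nuclei came from frozen hypothalamic punches, 1 mouse per library, from mice taken 24 h after the injection (Day 1, 3 FGF1 and 3 vehicle) or on Day 5 (2 FGF1 and 2 vehicle). A separate cohort of 6 FGF1 and 6 vehicle ob/ob mice supplied whole cells on Day 5, of which 13580 of 54890 fell in the clusters that carry astrocyte markers, and these are used only beside the nuclei. Because every mouse lacked leptin and controls ate less than they would have by choice, the data show FGF1 against pair-feeding within this model and say nothing of lean mice.

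Astrocytes clear glutamate and potassium around synapses, supply lactate and lipoproteins to neurons, and wrap blood vessels with endfeet. They carry FGF receptors, and FGF binding to these switches on the MAPK cascade, whose feedback inhibitors include the Sprouty proteins. After injury or inflammation astrocytes become reactive, a state known for more of the intermediate filament proteins Gfap and vimentin, for matrix and protease genes, and for signalling by cytokines of the interleukin 6 family through gp130 and STAT3.

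Day 1 astrocyte nuclei numbered 388, 113 and 52 in FGF1 mice 1, 2 and 3, and 57, 148 and 45 in vehicle mice 1, 2 and 3. Day 5 nuclei numbered 110 and 384 in FGF1 mice 37 and 45, and 208 and 33 in vehicle mice 28 and 38. Summed per mouse these held 144631 to 1194458 unique molecular identifiers (UMIs). Marker levels were set beside the annotation. Per the paper, clusters were named by cell-specific genes in these data, so high levels in astrocytes are no independent check. Slc1a2, the glutamate transporter GLT-1, had a UMI in 95.4% of astrocyte nuclei against 12.0% of unmapped neurons, those the study could not place in a published neuron type. The 4 label markers Slc1a2, Gja1, Ntsr2 and Slc4a4 summed to 3730.1 CPM (UMIs scaled to a common library total) in astrocytes, against 1886 CPM in tanycytes, 1504 CPM in ependymal nuclei, 1282 CPM in vascular leptomeningeal cells and 102 CPM in unmapped neurons. Neuronal markers summed to 4369 CPM in astrocytes against 19576 CPM in unmapped neurons, so each share of nuclei below is set beside that of unmapped neurons. Oligodendrocyte markers were high too, with a sum of 1812 CPM in astrocytes, 2852 CPM in oligodendrocyte nuclei and 199.5 CPM in unmapped neurons. Mbp, a myelin gene of that list, stood at 1215 CPM in astrocytes and 502 CPM in oligodendrocyte nuclei, with a UMI in 64.3% of astrocyte nuclei. Nuclei labelled as oligodendrocytes held 16528 CPM of neuronal markers themselves, near the sum of unmapped neurons, so they are a weak reference for these levels. In their ribosomal UMIs 3 libraries stood apart, with medians per astrocyte of 6.65% in FGF1 mouse 1, 6.04% in vehicle mouse 2 and 6.25% in vehicle mouse 28, against 1.39% to 3.57% in the other 7. At most 1 astrocyte barcode was shared by any pair of libraries.

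Astrocytes made up 5.64% ± 1.87 of nuclei (SD, n = 3) in Day 1 FGF1 mice and 5.10% ± 1.27 (n = 3) in vehicle mice. The groups overlapped, and the difference had p = 0.6 in an exact two-sided permutation test that cannot go below 0.1. On Day 5 the shares were 5.81% ± 1.2 and 6.06% ± 0.674 (SD, n = 2 each, exact p = 1). The sign of the difference turned without FGF1 mouse 1 on Day 1, and without FGF1 mouse 37 or vehicle mouse 28 on Day 5. Counts were then summed per mouse, so that fewer nuclei using a gene and less RNA per nucleus cannot be told apart in the values by mouse.

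On Day 1, 84 genes were higher and 10 lower in FGF1 astrocytes, which is 1.39% and 0.165% of the 6063 genes tested (1.55% in either direction, edgeR quasi-likelihood test, Benjamini-Hochberg FDR below 0.05). Genes of the reactive state, of calcium-binding S100 and annexin proteins, of intermediate filaments and of integrins were among those that rose, and a small group with Etnppl, Mro and the long noncoding RNA A330033J07Rik fell. In all 94 the levels of FGF1 and vehicle mice did not overlap, which held for 15.2% of all genes tested (8.91% with FGF1 mice above), so it says little of a single gene. The log2 fold changes of the called genes ran from 1.92 to 7.76 in size, leaving out Tgm1, whose fitted value is set against a vehicle group at 0 and is no bound, while the median over all genes tested was -0.01. A gene near 0 in vehicle mice passes the filter on low counts only through its FGF1 level. The size of its fold change rests on few vehicle UMIs and is uncertain, also where that group is not at 0. Without vehicle mouse 1 no gene was called (531 at an unadjusted p under 0.05), although all 94 kept their sign. With batch as a block, where each batch holds 1 FGF1 and 1 vehicle mouse, 38 of the 94 were called. Among those not called then were Vim, Fgf2, Spry2, Fos, Klf6, Nes, S100a6, S100a10, Adamts1, Slc16a1, Smad3, Ccnd1, Flt1, Mamdc2, Etnppl, Mro, Aifm3, Mettl24 and Gm12239. Without both Day 1 libraries of high ribosomal share 295 genes were called, among them all 77 of the 94 that could still be tested.

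Promoters of 4 genes that rose are shown as a description, and they were picked for holding letters that AP-1 or STAT factors bind. AP-1, the dimer of Fos and Jun, binds TGANTCA, and STAT factors bind TTCNNNGAA. Both motifs read the same on either strand. Of the genes that rose, the 4 with the largest increase whose window holds such a match are printed 5′ to 3′ on the strand of the gene, 250 bases before to 50 after the gene start of RefSeq on GRCm38.p6, in lower case with the matches in capitals.
Tgm1, transglutaminase 1, chr14:55713443-55713742, minus strand: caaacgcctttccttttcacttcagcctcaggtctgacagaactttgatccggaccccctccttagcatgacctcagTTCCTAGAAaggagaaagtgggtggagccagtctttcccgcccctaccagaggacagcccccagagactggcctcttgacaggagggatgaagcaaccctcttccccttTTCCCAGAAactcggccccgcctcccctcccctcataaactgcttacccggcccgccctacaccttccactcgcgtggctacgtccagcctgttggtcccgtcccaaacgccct
Socs3, suppressor of cytokine signalling 3, chr11:117969317-117969616, minus strand: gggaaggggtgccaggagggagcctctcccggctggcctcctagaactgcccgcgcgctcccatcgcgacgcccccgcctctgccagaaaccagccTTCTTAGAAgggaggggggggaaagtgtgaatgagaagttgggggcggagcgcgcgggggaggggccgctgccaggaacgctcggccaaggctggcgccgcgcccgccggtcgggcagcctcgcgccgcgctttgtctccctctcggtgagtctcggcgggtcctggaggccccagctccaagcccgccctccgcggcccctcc
Plaur, the urokinase receptor, chr7:24462233-24462532, plus strand: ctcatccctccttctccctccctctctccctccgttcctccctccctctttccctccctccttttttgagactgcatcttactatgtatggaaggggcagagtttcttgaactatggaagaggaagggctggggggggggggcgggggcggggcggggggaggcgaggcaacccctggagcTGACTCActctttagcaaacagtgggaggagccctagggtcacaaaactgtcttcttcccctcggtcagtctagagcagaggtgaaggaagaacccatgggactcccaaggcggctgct
S100a11, an S100 calcium-binding protein, chr3:93520246-93520545, plus strand: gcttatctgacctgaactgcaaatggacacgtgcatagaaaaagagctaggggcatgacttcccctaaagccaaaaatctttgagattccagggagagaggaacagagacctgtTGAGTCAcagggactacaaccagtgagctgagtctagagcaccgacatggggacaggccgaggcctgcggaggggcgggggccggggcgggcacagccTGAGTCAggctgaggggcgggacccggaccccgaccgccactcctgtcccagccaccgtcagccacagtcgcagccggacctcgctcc

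Counted from the gene start, the STAT matches of Tgm1 began at positions -173 and -64 and that of Socs3 at -154, and the AP-1 match of Plaur began at -69 and those of S100a11 at -136 and -38. A window was listed for 62 of the 84 genes that rose. Of these, 7 (11.3%) held the AP-1 letters: Anxa2, Clic1, Fas, Ifitm3, Osmr, Plaur and S100a11. The STAT letters stood in 9 (14.5%): Fas, Ifitm3, Nupr1, Rasl11a, Sbno2, Socs3, Tgm1, Tmbim1 and Tnfrsf1a. The same letters stood in 4.61% and 6.36% of the 4640 tested genes with a window and in 7.93% and 8.47% of all 27025 windows. Most of the 62 windows held neither motif. Timp1 and Hspb1, which had larger fold changes than Socs3, are not among the genes with a match. A match is a description of letters, and no binding was measured.

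The pan-reactive list, genes of both kinds of reactive astrocyte, held 13 genes, of which 10 could be tested on Day 1 and 8 rose (Timp1, Hspb1, Cd44, Osmr, Serpina3n, Vim, S1pr3 and Aspg), with a list median of 4.35 on the log2 scale. Genes near 0 in vehicle mice, such as Timp1 and Hspb1, passed the filter on low counts only through their FGF1 level. Counts and medians of this and the other Day 1 lists are thus partly set by that filter and are a description. Over all genes tested 1.39% rose. Timp1, an inhibitor of metalloproteases (chrX:20870166-20874735, GRCm38), stood at 1062, 474 and 701 CPM in FGF1 mice 1, 2 and 3 and at 0, 5.81 and 0 CPM in vehicle mice. Cd44, the hyaluronan receptor (chr2:102811141-102901665), stood at 245, 317 and 294 CPM against 10.2, 17.4 and 0 CPM. Every FGF1 mouse was far above every vehicle mouse in both genes, with log2 fold changes of 7.76 ± 0.91 (SE, FDR 0.00285) and 4.61 ± 0.63 (FDR 0.00518). Hspb1, a small heat shock protein, stood at 455, 274 and 180.4 CPM in FGF1 mice and at 0, 3.87 and 0 CPM in vehicle mice (log2 6.94 ± 0.79, FDR 0.00285). Serpina3n, a secreted serine protease inhibitor (chr12:104406729-104414329), stood at 982, 1131 and 661 CPM against 10.2, 32.9 and 39.2 CPM (5.05 ± 0.70, FDR 0.00575). It has close relatives in its gene family, so its counts are uncertain to the extent that reads were split among them. Vim, the gene of vimentin (chr2:13573927-13582826), stood at 1075, 729 and 735 CPM in FGF1 mice and at 35.6, 54.2 and 45.7 CPM in vehicle mice, again without overlap (4.20 ± 0.60, FDR 0.00575).

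Gfap, the best known gene of reactive astrocytes, was the most abundant of the pan-reactive list and missed the threshold. It stood at 3443, 2840.3 and 1957 CPM in FGF1 mice and at 392, 401 and 731 CPM in vehicle mice. The groups did not overlap, yet the log2 fold change of 2.44 ± 0.61 had an FDR of 0.0899, and it passed under 6 of the alternatives tried, DESeq2 among them. Of the A2 list, genes of astrocytes after ischaemia, 4 of 5 tested rose (Tgm1, Tm4sf1, Clcf1 and S100a10, list median 5.21, or 5.19 with Tgm1 at its lower bound). Of the A1 list, genes of astrocytes after endotoxin, 3 of 12 could be tested and none was called (median 0.35, edgeR, with 0 at an unadjusted p under 0.05 and 0 called by DESeq2).

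Tgm1, a transglutaminase that crosslinks proteins, carries the promoter with 2 STAT matches shown above. It stood at 153, 125 and 100.2 CPM in FGF1 mice and at 0 CPM in all 3 vehicle mice. Against 3 counts over the vehicle group, the floor that a count of 0 allows, it was at least 36.5-fold higher (FDR 0.00328). Exons of Tgm1 overlap Gm49067 on the opposite strand, and no source used here says that strand entered the counting. Tm4sf1, a tetraspanin-like surface protein, stood at 223, 208 and 374 CPM in FGF1 mice and at 0, 7.74 and 13.1 CPM in vehicle mice (5.21 ± 0.68, FDR 0.00422).

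**Figure D1:**
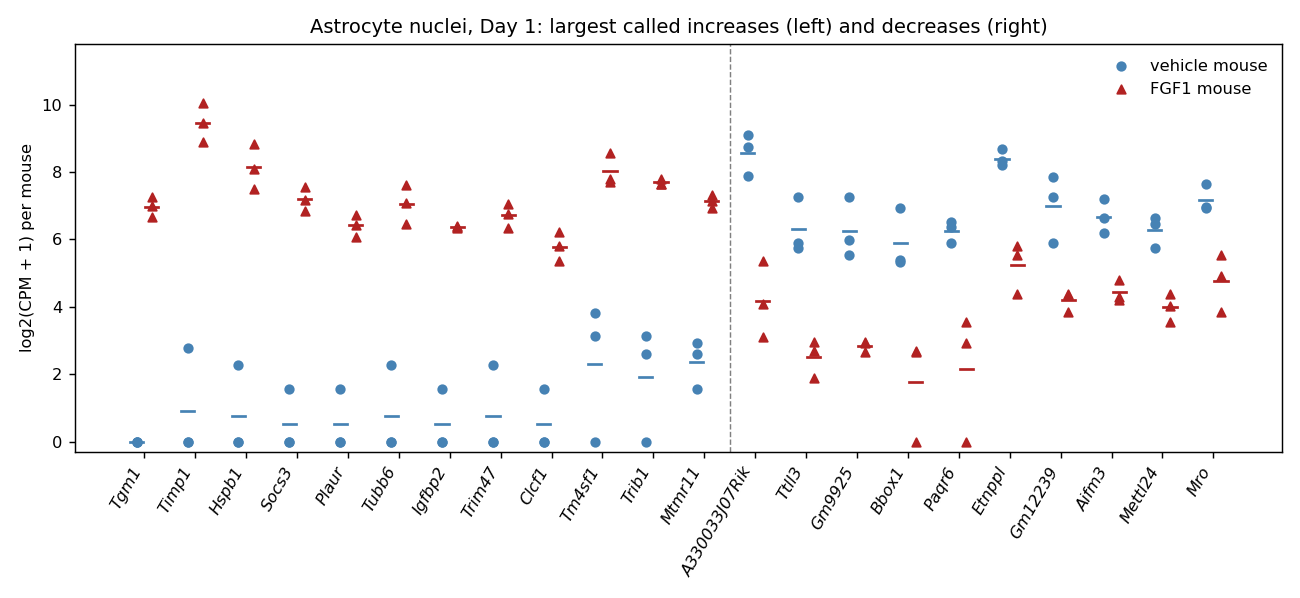
Levels of the 12 genes with the largest called increase and the 10 called decreases on Day 1, as log2(CPM + 1) per mouse on the vertical axis (triangles FGF1, circles vehicle, short bars the group means, n = 3 mice each). Genes were chosen among called genes without overlap between FGF1 and vehicle mice, so the gap in each was set by that choice. Of all genes tested 15.2% had no overlap. Tgm1 lies at 0 in every vehicle mouse.

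The FGF pathway itself was read from its receptors and ligands and from MAPK feedback genes. Of 7 tested receptor and ligand genes Fgf2, a ligand with a strong affinity for heparan sulphate, was the one called. It stood at 75.1, 85.2 and 107 CPM in FGF1 mice and at 10.2, 15.5 and 19.6 CPM in vehicle mice, and it rose by 2.52 ± 0.45 on the log2 scale (SE, FDR 0.0194). Among receptors, Fgfr1 had 176, 165 and 100.2 CPM against 66.1, 58.1 and 39.2 CPM (1.43 ± 0.43, FDR 0.176), and the mouse levels of Fgfr2 (-0.10 ± 0.53) and Fgfr3 (0.44 ± 0.47) overlapped. Spry2, a Sprouty feedback inhibitor, stood at 356, 258 and 374 CPM in FGF1 mice and at 91.5, 67.7 and 58.8 CPM in vehicle mice and rose by 2.17 ± 0.45 (FDR 0.0386). The other 4 tested genes of that list, Etv4, Etv5, Spred1 and Spred2, all had positive values from 0.75 to 2.50 that missed the threshold of edgeR, and DESeq2 called Etv4.

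Immediate early genes, transcription factors switched on within minutes of a signal, were seldom counted: 5 of 20 in the table could be tested, and 4 of these rose. The share over all genes tested was 1.39%. Jun stood at 206, 95.8 and 60.1 CPM in FGF1 mice and at 10.2, 1.94 and 0 CPM in vehicle mice (5.01 ± 0.81, FDR 0.0122). Fos, its partner in AP-1, stood at 151, 98.5 and 114 CPM against 10.2, 29.0 and 26.1 CPM (2.41 ± 0.49, FDR 0.0325). Egr1 (4.46 ± 0.74, FDR 0.0135) and Klf6 (2.81 ± 0.47, FDR 0.0132), which are zinc finger factors, rose as well. FGF1 mice lay above vehicle mice in each of these genes, as in every gene called higher and in 8.91% of all genes tested. Of genes of gp130 cytokines, 3 of 9 tested rose. Socs3, the inhibitor that STAT3 induces and whose promoter is shown above, stood at 187, 144 and 114 CPM in FGF1 mice and at 0, 1.94 and 0 CPM in vehicle mice (6.71 ± 0.72, FDR 0.00285). Osmr, the oncostatin M receptor (3.84 ± 0.48, FDR 0.0035), and Clcf1, a cytokine ligand of the family (5.23 ± 0.83, FDR 0.0114), rose with it, and Stat3 had 339.5, 596 and 434 CPM against 137, 87.1 and 163 CPM (1.84 ± 0.51, edgeR FDR 0.139, called by DESeq2).

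Genes that shape the cell and its contacts were read from 4 lists, where 1.39% of all genes tested rose with a median of -0.01. Genes near 0 in vehicle mice, such as Tubb6 and Nes, passed the filter on low counts only through their FGF1 level. Signs, counts and medians of these lists are thus a description. Of 18 tested cytoskeleton genes all had positive fold changes and 6 rose (list median 1.76), Vim, Nes, Tubb6, Tagln2, Flna and Tpm4. Tubb6, a tubulin, stood at 196, 136 and 86.8 CPM in FGF1 mice and at 0, 3.87 and 0 CPM in vehicle mice. Nes, the gene of the progenitor filament nestin, stood at 53.3, 63.9 and 53.4 CPM against 0, 3.87 and 6.53 CPM. The abundant actin genes Actb (0.84 ± 0.65) and Actg1 (1.15 ± 0.64) were not called, and their vehicle levels overlapped those of FGF1 mice. Of S100 and annexin genes 5 of 12 tested rose, with a median of 2.13 over the list. S100a6 was the most abundant of these, at 2175, 1557 and 1403 CPM in FGF1 mice and 117, 184 and 261 CPM in vehicle mice (3.20 ± 0.62, FDR 0.0291). Anxa2 varied little among FGF1 mice, at 350.4, 314 and 321 CPM against 25.4, 13.5 and 13.1 CPM (4.26 ± 0.51, FDR 0.00285), with the limit that its exons overlap Gm16144. Exons of Fgf2, Jun, Clcf1 and Ccnd1 overlap another gene too (Nudt6, Junos, AC109138.7 and LTO1), which makes their counts uncertain in the same way. S100a10, which pairs with annexin A2 at membranes, stood at 1294, 660.2 and 561 CPM against 30.5, 73.5 and 0 CPM (4.44 ± 0.92, FDR 0.0386).

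Of integrin, galectin and Cd44 genes 5 of 11 tested rose (median 1.53). Itga5, the fibronectin receptor subunit, stood at 83.8, 176 and 80.2 CPM in FGF1 mice and at 5.08, 5.81 and 19.6 CPM in vehicle mice (3.68 ± 0.63, FDR 0.0151). Itgav, another integrin subunit, was more abundant at 471, 437 and 494 CPM against 158, 104 and 229 CPM and was called by DESeq2 but not by edgeR (1.53 ± 0.51, edgeR FDR 0.249). Of matrix and protease genes 4 of 14 tested rose while the list median was -0.14, among them Timp1, Plaur and Adamts1, a secreted metalloprotease. Plaur stood at 106, 85.2 and 66.8 CPM in FGF1 mice and at 0, 1.94 and 0 CPM in vehicle mice (5.93 ± 0.70, FDR 0.00285). Plat, the gene of tissue plasminogen activator, had 313, 239.6 and 187 CPM against 86.4, 61.9 and 58.8 CPM and missed the threshold of edgeR (1.85 ± 0.44, FDR 0.0696), while DESeq2 called it.

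Single members of other lists rose as well. Hbegf, a ligand of the EGF receptor, stood at 355, 184 and 100.2 CPM in FGF1 mice and at 15.3, 15.5 and 6.53 CPM in vehicle mice (4.0 ± 0.62, FDR 0.0108). Igfbp2, a binding protein of insulin-like growth factors, stood at 81.6, 82.5 and 80.2 CPM against 0, 1.94 and 0 CPM (5.82 ± 0.68, FDR 0.00285). Its FGF1 mice were the closest to each other of the 12 genes with the largest increase, which was not set against counting error. The vehicle levels of Igfbp2, Socs3 and Plaur rest on few UMIs, so the sizes of their increases are uncertain. Slc16a1, the lactate transporter MCT1, stood at 156, 154 and 140.3 CPM against 45.8, 19.4 and 32.6 CPM (2.28 ± 0.45, FDR 0.0306). Smad3, a mediator of TGF-beta (2.61 ± 0.45, FDR 0.0151), and Ccnd1, cyclin D1 (3.32 ± 0.70, FDR 0.0439), rose too. Among genes of no list, Trib1, a pseudokinase, stood at 223, 199.6 and 200.4 CPM in FGF1 mice and at 5.08, 7.74 and 0 CPM in vehicle mice (5.18 ± 0.59, FDR 0.00285).

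The 10 genes that fell were A330033J07Rik, Ttll3, Gm9925, Bbox1, Paqr6, Etnppl, Gm12239, Aifm3, Mettl24 and Mro. Etnppl, an enzyme that breaks down phosphoethanolamine (chr3:130617448-130637521), stood at 54.4, 45.3 and 20.0 CPM in FGF1 mice and at 407, 319 and 294 CPM in vehicle mice, and fell by 2.99 on the log2 scale (SE 0.49, FDR 0.0122). A330033J07Rik, whose exons overlap Id4 and Gm49291, stood at 7.62, 16 and 40.1 CPM in FGF1 mice against 544, 236 and 431 CPM (-4.50 ± 0.69, FDR 0.0107). Bbox1, the last enzyme of carnitine synthesis, stood at 5.44, 5.32 and 0 CPM against 122, 40.6 and 39.2 CPM (-3.72 ± 0.72, FDR 0.0292). The highest FGF1 mouse lay below the lowest vehicle mouse in each of these genes, as in 6.25% of all genes tested. Decreases were named only among genes without overlap, so this gap was set by that choice. Etnppl, Mro, A330033J07Rik and Mamdc2, which rose (2.47 ± 0.49, FDR 0.0306), belong to a list drawn up with results of these samples known, so its 3 decreases and 1 increase of 6 tested are not independent evidence.

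Several lists of genes for transport and metabolism held no call on Day 1, unlike that of glycogen and lactate with Slc16a1. None of 8 glutamate and GABA transporters (median -0.33), 7 genes of their metabolism (-0.64), 13 genes of water, potassium and endfeet (-0.11), 8 of lipoproteins (0.19), 11 of cholesterol synthesis (-0.02) or 15 of glycolysis (0.14) passed by edgeR. At an unadjusted p under 0.05 there were 1 lower gene of metabolism, 1 lower of endfeet, 1 higher of lipoproteins and 3 higher of glycolysis, of which DESeq2 called Slc2a1, the glucose transporter GLUT1, and Pfkp, a phosphofructokinase. Slc1a2 stood at 1946, 1467 and 1029 CPM in FGF1 mice and at 2309, 1465 and 1293 CPM in vehicle mice, with overlap. Ntsr2, a neurotensin receptor and label marker, had 288, 106 and 73.5 CPM against 392, 373 and 418 CPM without overlap (-1.30 ± 0.57, FDR 0.48). Glul, glutamine synthetase, had 615, 186 and 114 CPM against 1256, 1705 and 477 CPM (-1.89 ± 0.76, FDR 0.421), and Agt, angiotensinogen, had 776, 306 and 220.4 CPM against 1215, 1639 and 757 CPM (-1.46 ± 0.65, FDR 0.496). In Glul and Agt the FGF1 mouse of high ribosomal share lay within the vehicle range and the other two lay below it. Apoe showed the same library most: 16428 CPM in FGF1 mouse 1 against 779.9 and 561 CPM in mice 2 and 3, with 2263, 2407 and 1456 CPM in vehicle mice (1.54 ± 1.10, FDR 0.843). Without the Day 1 libraries of high ribosomal share its value turned to -1.46 and passed (edgeR FDR 0.0169).

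**Figure D2:**
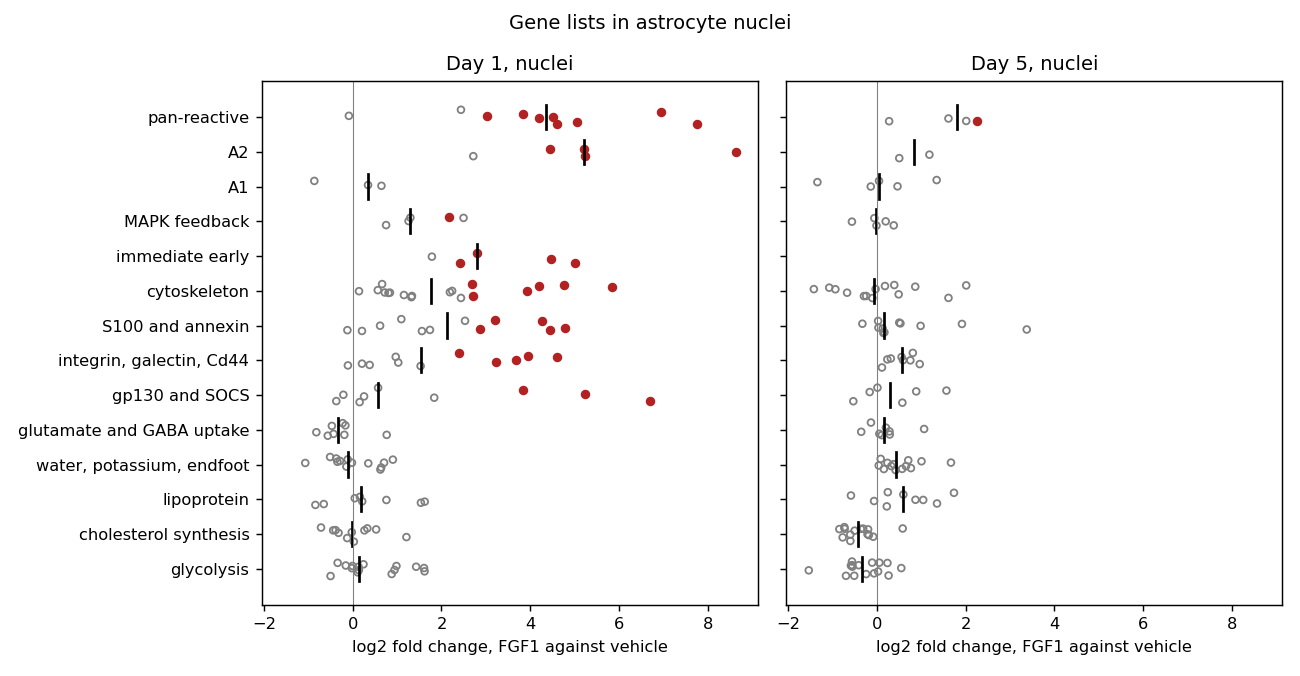
Log2 fold changes of FGF1 against vehicle (horizontal axis) for the tested members of 14 gene lists on Day 1 (left) and Day 5 (right), each point a gene, filled where called at an FDR below 0.05, with the list median as a vertical bar. On Day 1 the pan-reactive and A2 medians stand at 4.35 and 5.21, and the medians of glutamate uptake, cholesterol synthesis and glycolysis lie between -0.33 and 0.14. Medians of lists with genes near 0 in vehicle mice are partly set by the filter on low counts. The value of Tgm1, at the far right of the A2 list, is fitted against a vehicle group at 0 and is no bound.

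Markers of other cells were set beside these results. Oligodendrocyte markers summed to 293 to 1138 CPM in Day 1 FGF1 astrocytes and 797 to 3018 CPM in vehicle astrocytes, and ependymal markers to 6.08 to 15 CPM against 36.5 to 67.9 CPM. Microglial sums overlapped, at 80.1 to 142 CPM and 92.7 to 221 CPM, as did neuronal sums, at 2037 to 6039 CPM and 4719 to 6881 CPM. Markers of vascular leptomeningeal cells summed to 10.9 to 225 CPM against 32.0 to 43.2 CPM, with the highest value in FGF1 mouse 3, where Dcn stood at 158 CPM and Lum at 36.5 CPM (Lum was at 0 in all 3 vehicle mice). The groups overlapped in Col1a1, Col1a2 and Slc6a13 of that list. Tanycyte sums overlapped too, at 85.1 to 485 CPM against 118 to 224 CPM, with Rax at 0 in FGF1 mice. Endothelial markers summed to 69.5 to 213 CPM against 31.5 to 98.8 CPM, and Flt1, the VEGF receptor of that list, was called (2.90 ± 0.56, FDR 0.0292). The other members did not rise with it. Slco1a4 stood at 2.51, 5.01 and 0 CPM in FGF1 mice and at 45.7, 6.63 and 24.7 CPM in vehicle mice, and Pecam1 and Cldn5 overlapped. The part of these cells in the results was not tested, beyond a repeat on nuclei with under 3 neuronal UMIs, which called 22 of the 24 Day 1 genes it could test.

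To see whether the Day 1 response sat in a few nuclei or in most, every nucleus was thinned to 1000 UMIs, which left out none. The 84 genes were chosen on the sums of these same nuclei, so the Day 1 gap is a description. FGF1 nuclei held UMIs of a median of 12, 13 and 10.5 of the 84 genes in mice 1, 2 and 3, and vehicle nuclei of 1 gene in each mouse. At least 5 of the genes were found in 94.8%, 95.6% and 94.2% of FGF1 nuclei and in 0%, 3.38% and 4.44% of vehicle nuclei. The 0 of 57 nuclei of vehicle mouse 1 allows up to 5.26%, for counting error only. Only 1 of 553 FGF1 nuclei had none. Unmapped neurons, which share the free RNA of a library, had a median of 1 gene in FGF1 mice and 0 in vehicle mice, with at least 5 genes in 2.15% and 0.280% of them. Median depth before thinning was 2588 UMIs in FGF1 and 3241.5 in vehicle astrocytes, and 2214 and 3228.5 in unmapped neurons. In each FGF1 mouse, then, UMIs of several of these genes were found in most astrocyte nuclei and not in a small subset.

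Single genes were found in fewer nuclei. After thinning, Gfap had a UMI in 83.0%, 70.8% and 65.4% of FGF1 nuclei and in 26.3%, 15.5% and 28.9% of vehicle nuclei (means before thinning 89.9% and 42.7%), against 4.96% and 0.373% of unmapped neurons. Vim had one in 41.2%, 40.7% and 28.8% of FGF1 nuclei and in 1.75%, 2.03% and 2.22% of vehicle nuclei (65.1% and 11.7% before thinning), against 5.74% and 0.466% of unmapped neurons. In unmapped neurons too both genes were seen more often in FGF1 than in vehicle mice, at levels far under those of astrocytes. Etnppl had a UMI in 3.35% and 3.54% of nuclei of FGF1 mice 1 and 2 and in 0 of the 52 nuclei of mouse 3, which allows up to 5.77%, and in 35.1%, 28.4% and 26.7% of vehicle nuclei (9.83% and 61.0% before thinning), with 0.0945% and 0.606% of unmapped neurons. FGF1 nuclei thus held Etnppl UMIs less often in every mouse, and above the share of unmapped neurons in mice 1 and 2.

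**Figure D3:**
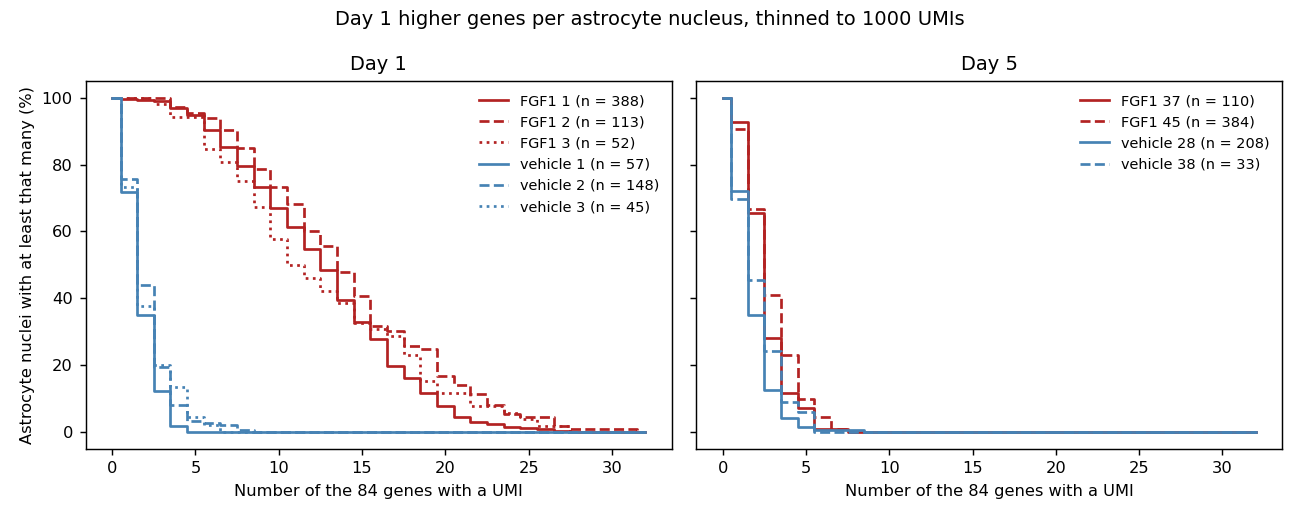
Share of astrocyte nuclei (vertical axis, percent) with UMIs of at least the given number of the 84 genes that were higher on Day 1 (horizontal axis), after thinning to 1000 UMIs, on Day 1 (left) and Day 5 (right), 1 line per mouse. Day 1 FGF1 mice have medians of 10.5 to 13 genes and all vehicle mice of 1, and the Day 5 FGF1 mice have a median of 2.

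On Day 5, 53 of 8484 genes were called (0.625%), 3 higher (0.0354%) and 50 lower (0.589%), from 2 mice per group. The count was 0 in 1 fit of all 4 groups (345 at an unadjusted p under 0.05). Each fit without 1 mouse leaves a group of 1 mouse, and the count changed widely over these fits. With batch as a block, where each batch holds 1 FGF1 and 1 vehicle mouse, 22 of the 53 were called. Serpina3n was the 1 increase among them, and Fabp7 and Plat were not called then. Serpina3n stood at 70.1 and 91.1 CPM in FGF1 mice 37 and 45 and at 17.9 and 14.1 CPM in vehicle mice 28 and 38, and rose by 2.25 ± 0.46 on the log2 scale (SE, FDR 0.0259). Fabp7, the brain fatty acid-binding protein, stood at 278 and 525 CPM against 109 and 84.7 CPM (2.02 ± 0.43, FDR 0.0323). Plat stood at 143 and 232 CPM against 55.3 and 35.3 CPM (1.95 ± 0.41, FDR 0.0323). In each of the 3 genes both FGF1 mice lay above both vehicle mice, as did 21.0% of all genes tested that day. Ependymal markers summed to 39.9 to 51.7 CPM in Day 5 FGF1 astrocytes and 13.8 to 14.3 CPM in vehicle astrocytes, with Tmem212 at 0 in the latter, the reverse of Day 1. Tanycyte markers summed to 133 to 146 CPM against 173 to 380.5 CPM, with Rax at 0 in vehicle mice, and the sums of the other cell types overlapped. Their part in the Day 5 results was not tested. On Day 1 Fabp7 had 300.3, 85.2 and 134 CPM in FGF1 mice and 147, 226 and 118 CPM in vehicle mice, with overlap (0.08 ± 0.53). The call of each of the 3 was lost under 4 alternatives, and DESeq2, whose filter left 425 of the 8484 genes with an adjusted p, gave none to any of the 3. DESeq2 called 5 genes higher, Aqp4, Cd9, Clu, Gfap and Slc7a11.

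Several astrocyte genes missed the threshold narrowly on Day 5. Vim stood at 60.1 and 124 CPM in FGF1 mice and 24.4 and 21.2 CPM in vehicle mice (2.01 ± 0.48, FDR 0.0546). Aqp4, the water channel of endfeet, stood at 757 and 865 CPM against 205 and 318 CPM (1.67 ± 0.40, FDR 0.0571). Gfap had 544 and 851 CPM against 208 and 254 CPM (1.61 ± 0.40, FDR 0.0696), and Clu, the lipoprotein clusterin, 3076 and 7874 CPM against 1998 and 1271 CPM (1.74 ± 0.43, FDR 0.0696). Il6st, the gene of gp130, had 113 and 99.6 CPM against 40.7 and 21.2 CPM (1.57 ± 0.41, FDR 0.0873). FGF1 mice were above vehicle mice in all 5 genes, as in 21.0% of all genes tested that day. The 5 were picked among genes that nearly passed, so this gap adds nothing to their tests. Of them edgeR called none and DESeq2 called Aqp4, Clu and Gfap. The 4 label markers had values from 0.11 to 0.71, all positive, where they had been from -1.30 to -0.19 on Day 1.

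Of the 50 genes that fell on Day 5 (20.4% of all genes tested had both FGF1 mice below both vehicle mice), 46 had their highest level in vehicle mouse 28, the library of high ribosomal share, and the median ratio of vehicle mouse 28 to vehicle mouse 38 over them was 2.81. Cox6a1, a subunit of cytochrome c oxidase, stood at 87.7 and 71.8 CPM in FGF1 mice and at 1339 and 198 CPM in vehicle mice 28 and 38 (-3.33 ± 0.65, FDR 0.029). Pcsk1n, a neuroendocrine peptide gene, stood at 10.0 and 9.64 CPM against 278 and 49.4 CPM (-4.23 ± 0.62, FDR 0.0221), and its exons overlap Eras. Mrpl54, of the mitochondrial ribosome, stood at 7.52 and 6.43 CPM against 107 and 21.2 CPM (-3.52 ± 0.59, FDR 0.0221). Hba-a2, a haemoglobin chain of red cells, stood at 0 and 2.14 CPM against 27.7 and 35.3 CPM, with vehicle mouse 38 the higher. Without vehicle mouse 28, 41 of the 53 genes could be tested and 9 were called, among them Fabp7, Plat and Ptgds. In nuclei with at most 5% mitochondrial and at most 5% ribosomal UMIs, 11 of 28 were called, Serpina3n, Fabp7 and Plat among them.

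Whether FGF1 acted differently on the days was tested as an interaction over all 10 mice, in which day and cohort cannot be told apart. No gene of 8872 was called by edgeR (0%; 689 at an unadjusted p under 0.05), and DESeq2 called 3. Among genes that fell on Day 1, the effect on A330033J07Rik was 5.16 ± 0.90 higher on the log2 scale on Day 5 (FDR 0.164) and that on Etnppl was 2.66 ± 0.67 higher (FDR 0.338). On Day 5 Etnppl stood at 353 and 389.9 CPM in FGF1 mice and 456 and 487 CPM in vehicle mice (-0.34 ± 0.37), and A330033J07Rik at 253 and 283 CPM against 112 and 254 CPM (0.65 ± 0.42). For Vim the effect differed by -2.20 ± 0.75 (FDR 0.483), for Serpina3n by -2.78 ± 0.84 (FDR 0.42) and for Spry2 by -1.87 ± 0.60 (FDR 0.442). None of these passed the test of the difference.

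Of the 84 genes higher on Day 1, 34 could be tested on Day 5, in other mice. A gene near 0 in vehicle mice passed the Day 5 filter on low counts only where FGF1 mice were high, so signs and medians over the 34 are partly set by that filter and are a description. There 32 had a positive value, with a median of 0.55, and Serpina3n was the 1 that was called. Anxa2 had the largest Day 5 value (3.38 ± 0.81, FDR 0.0587) and Mrps6 the lowest (-0.75 ± 0.43, FDR 0.476). All 10 genes lower on Day 1 could be tested, and their Day 5 median was 0.31, with 3 of 10 negative, 1 at an unadjusted p under 0.05 and none called by edgeR. Per nucleus, the 84 genes gave a median of 2 genes with a UMI in FGF1 mice 37 and 45 and of 1 in vehicle mice 28 and 38. At least 5 genes were found in 7.27% and 9.90% of FGF1 nuclei against 1.44% and 6.06% of vehicle nuclei, and in 0.0262% and 0.0557% of unmapped neurons. Median depth was 2412 UMIs in FGF1 and 3020 in vehicle astrocytes, and 2517 and 2704.5 in the neurons.

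**Figure D4:**
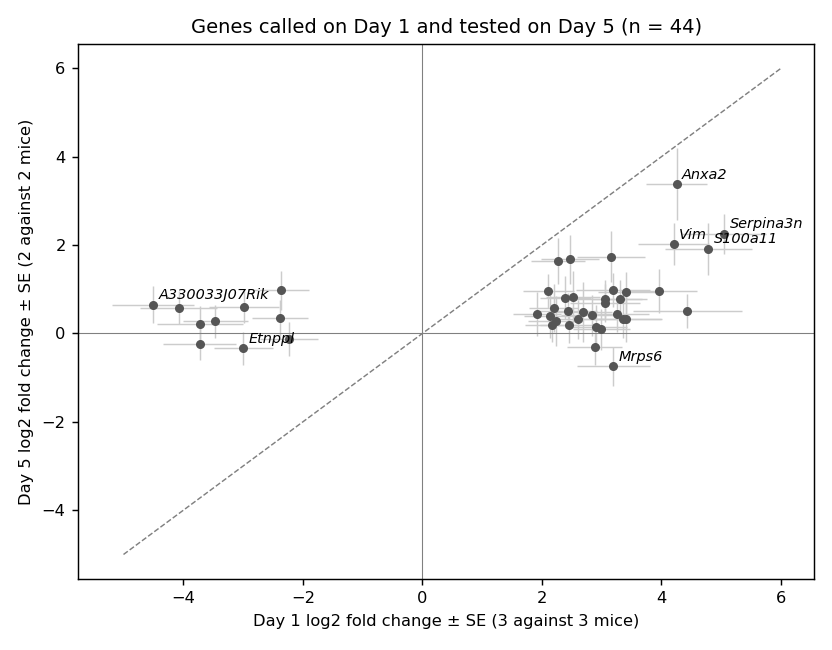
Day 1 log2 fold change (horizontal axis, 3 against 3 mice) and Day 5 log2 fold change (vertical axis, 2 against 2 mice) of the 44 genes called on Day 1 that could be tested on Day 5, each with its SE, the dashed line marking equal effects. Genes higher on Day 1 lie below the line with a Day 5 median of 0.55, Serpina3n (5.05 and 2.25) is the gene called on both days, and Etnppl lies near 0 on Day 5.

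Whole-cell astrocytes of the separate Day 5 cohort were read for the same day from more mice, with 12.6% of 9830 genes called, 6.55% higher and 6.06% lower. Of the 84 genes, 65 could be tested there, of which 26 were higher and 4 lower (median 0.37), with the same limit of the filter. These 26 are 31.0% of the 84, the untested genes included, and 4.04% of the 644 genes higher in whole cells. Plat ran from 114 to 182 CPM with a median of 163 in 6 FGF1 mice and from 38.5 to 71.5 CPM with a median of 45.2 in 6 vehicle mice, without overlap, as in 3.31% of all genes tested (1.67 ± 0.14, FDR 8.076e-09). Fabp7 ran from 387 to 515.5 CPM (median 408) against 139 to 293 CPM (median 213), also without overlap (0.98 ± 0.15, FDR 0.0002855). Aqp4, which missed the threshold in nuclei, ran from 500.8 to 967 CPM (median 855) against 233 to 321 CPM (median 277) and rose by 1.53 ± 0.13 (FDR 8.076e-09). Of the pan-reactive list 6 of 6 tested genes were higher there (Cd44, Osmr, Serpina3n, Aspg, Vim and Gfap), of the A2 list 2 of 2, and of the A1 list 2 of 6 with 1 lower, with Vim at 1.92 ± 0.22 and Gfap at 2.21 ± 0.53 on the log2 scale. Of 12 tested immediate early genes 7 were lower in FGF1 cells there. Fos ran from 244 to 981 CPM (median 422) in FGF1 mice and from 961 to 2250.0 CPM (median 1504) in vehicle mice. Per the paper, whole cells were freed from fresh mediobasal hypothalamus by enzymes, nuclei came from frozen punches, and the mice of each had another supplier. The part of these differences in the values, those of immediate early genes included, was not tested. Of the 10 genes lower on Day 1, 7 could be tested in whole cells (median -0.121), with 1 called lower and 1 called higher. Etnppl was lower (-0.60 ± 0.10, FDR 0.0003366), at 392 to 514.5 CPM against 538 to 770.4 CPM. Bbox1 was higher (0.66 ± 0.16, FDR 0.007248).

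Tanycytes, the glia that line the floor of the third ventricle, come from the same Day 1 mice (438 nuclei over all libraries), and the difference between the FGF1 effects of both types was tested with the mouse as a block. It was called in 15 of 4951 genes (0.303%), with the astrocyte effect above the tanycyte effect in 8 (0.162%) and below it in 7 (0.141%). Levels in this paragraph were scaled over both cell types together, so those of astrocytes differ from the ones given above. Serpina3n stood at 1035 ± 281 CPM in FGF1 and 30.6 ± 16.5 CPM in vehicle astrocytes, and at 222 ± 69.2 and 64.1 ± 48.7 CPM in tanycytes (SD, n = 3 mice each). Its effect was greater in astrocytes by 3.07 ± 0.61 on the log2 scale (SE, FDR 0.0231). Ifitm3, an antiviral membrane protein whose promoter held both motifs, rose from 17.7 ± 13.9 to 185 ± 59.4 CPM in astrocytes while tanycytes went from 105 ± 59.0 to 220.4 ± 85.3 CPM (difference 2.26 ± 0.52, FDR 0.0458). Timp3, a protease inhibitor held in the matrix, had 171 ± 20.6 CPM in FGF1 and 308 ± 44.6 CPM in vehicle astrocytes, and 502 ± 57.8 against 198 ± 24.1 CPM in tanycytes, where it rose (difference -2.26 ± 0.40, FDR 0.0109). Ndrg1 had 35.5 ± 12.6 and 28.8 ± 9.69 CPM in astrocytes and 324 ± 118 and 51.0 ± 37.0 CPM in tanycytes (difference -2.78 ± 0.64, FDR 0.0458). These calls rest on 3 mice: none was made without FGF1 mouse 1, vehicle mouse 1 or vehicle mouse 3, or without the block of mouse.

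In tanycytes alone 9.14% of 3534 genes were called on Day 1, 5.38% higher and 3.76% lower. Other genes of the Day 1 astrocyte response were called in tanycytes too, and their values stand side by side because the mice are the same. Timp1 had a log2 fold change of 7.76 in astrocytes and 6.56 in tanycytes, Cd44 of 4.61 and 3.57, Vim of 4.20 and 2.79, Socs3 of 6.71 and 3.77, and Etnppl of -2.99 and -3.74, each called in both. For ependymal nuclei (184 over all libraries) the test of the difference called 0 of 4270 genes by edgeR (0%; 254 at an unadjusted p under 0.05), and 3 by DESeq2. Vim had 2.44 ± 0.34 and Serpina3n 2.58 ± 0.56 there, against 4.20 ± 0.60 and 5.05 ± 0.70 in astrocytes.

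**Figure D5:**
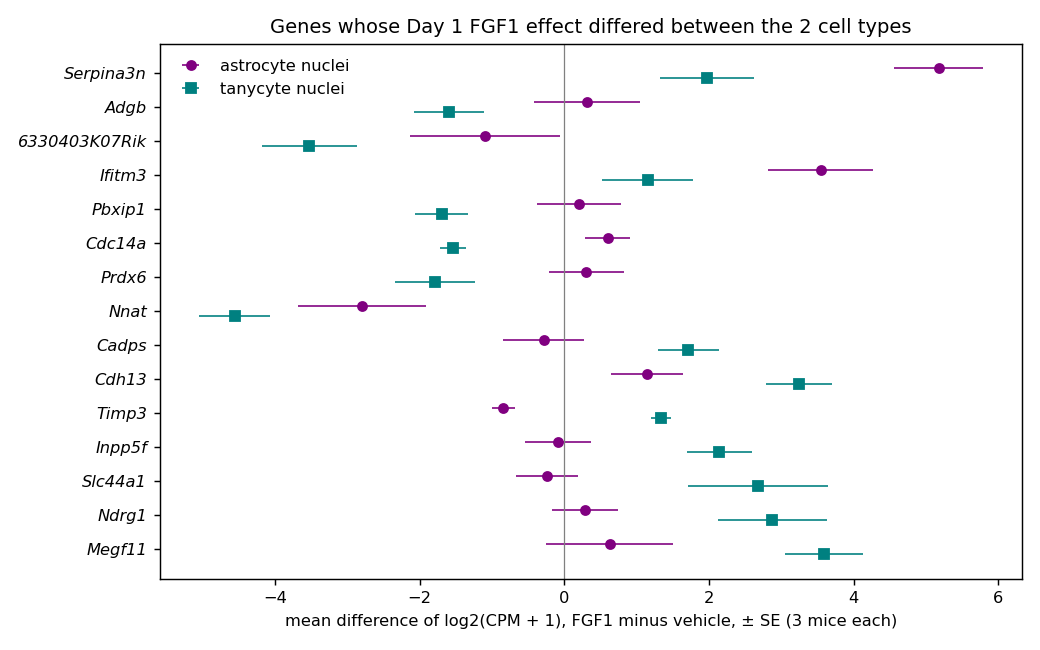
Mean difference of log2(CPM + 1) between FGF1 and vehicle mice (horizontal axis, ± SE, n = 3 mice each) in astrocyte nuclei (circles) and tanycyte nuclei (squares) for the 15 genes whose Day 1 FGF1 effect differed between the types. Serpina3n and Ifitm3 lie farther to the right in astrocytes, and Megf11, Ndrg1 and Timp3 farther to the right in tanycytes.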

How the data were processed

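Droplet libraries of 10 mice of nuclei and 12 of whole cells, 1 mouse each, were grouped by the deposited labels. Per the methods and labels, the authors aligned reads with Cell Ranger 1.2 to GRCm38, with introns for nuclei, filtered barcodes with Seurat and deposited whole-number UMI counts per gene and barcode. They ran no doublet caller on nuclei and Scrublet on whole cells, and none was run here. Their normalized tables (log values after SCTransform) were not used. The paper discarded nuclei with over 5% mitochondrial or ribosomal transcripts and reports fewer nuclei than the 24965 deposited. Of the 1538 astrocyte nuclei used here, 921 had at most 5% of each, and the main tests kept the rest. All 24965 barcodes matched the UMI totals of the metadata, whose cell type column gave the astrocytes. What its batch number stands for is not stated, and each batch holds 1 FGF1 and 1 vehicle mouse. Whole-cell astrocytes are clusters 1 and 4, which carry the marker genes.

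Counts were summed per mouse and tested with edgeR 4.0.16 in R 4.3.3 (filterByExpr, TMM, robust quasi-likelihood fit, no covariates) on each day, with FDR over all genes tested. DESeq2 1.42.0, other scaling, no filter, stricter nuclei, batch or replicate blocks and leaving out each mouse were alternatives. Levels are TMM-scaled CPM, except those of cell type markers and their sums in the checks of other cells, which are CPM without that scaling. TMM was fitted anew in each test. SE follows from the F statistic. Groups at 0 were set against 3 counts over the group. These tests, intervals and floors cover the spread between mice or counting only. Shares used exact permutation tests, and nuclei were thinned to 1000 UMIs. Gene coordinates are GENCODE on GRCm38 and promoters RefSeq on GRCm38.p6.

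The nuclei, the 46 lists (530 genes) and the tests were chosen with earlier results of these data known. Named were, per day, called genes without overlap between groups (the 12 largest increases and the 10 largest decreases), up to 4 called genes and the 4 most abundant genes of each list, the label markers, and up to 6 genes per direction in tests of a difference. Other genes named were picked after their values were seen.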

Additional observations from a re-analysis of the deposited data

Results flagged for a closer look

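In whole-cell astrocytes 30 groups of 6 mice were screened for a single mouse far from the rest, and 5 were found, where chance gives about 1 in 20. Serpina3n stood at 783.5 CPM in FGF1 mouse 6, with the next at 195.8 CPM, and at 88.5 CPM in vehicle mouse 22, with the next at 44.94 CPM. Gfap stood at 317.5 CPM in vehicle mouse 22 (next 135.4), Etnppl at 514.5 CPM in FGF1 mouse 10 (next 434.6) and Mamdc2 at 5.956 CPM in vehicle mouse 29 (next 3.288).

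The Day 1 effect of FGF1 in astrocytes minus that in tanycytes, on the log2 scale, passed the test of the difference in 15 genes. It was negative for Megf11 (-3.484), Ndrg1 (-2.778), Slc44a1 (-2.683), Inpp5f (-2.493), Timp3 (-2.26), Cdh13 (-2.109) and Cadps (-2.043). It was positive for Nnat (1.93), Prdx6 (2.061), Cdc14a (2.116), Pbxip1 (2.198), Ifitm3 (2.258), 6330403K07Rik (2.558), Adgb (2.633) and Serpina3n (3.074). In the Day 1 test of astrocyte nuclei by themselves Serpina3n and Ifitm3 were called, both higher (Serpina3n was called higher in tanycytes too), and Adgb and Ndrg1 could not be tested there.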

How the results depend on the processing

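The 94 genes called on Day 1 became 214 without the filter on low counts, 173 in nuclei with at most 5% mitochondrial and ribosomal UMIs, 46 in nuclei with under 3 neuronal UMIs, 39 with batch as a block (38 of the 94), 198 with all 4 groups in 1 fit, 200 with DESeq2 and, in an alternative chosen after seeing the data, 295 without the libraries of high ribosomal share. Leaving out a mouse gave 0 (vehicle mouse 1) to 116 (FGF1 mouse 1), with 38, 34 and 51 without FGF1 mouse 2, vehicle mouse 2 and vehicle mouse 3. No tested gene of the 94 changed sign under any of these.
The 53 of Day 5 became 81 with RLE scaling, 173 without the filter, 24 and 29 with the limit of 5% and the batch block, 0 with all 4 groups in 1 fit (345 at an unadjusted p under 0.05), and 13 (FGF1 mouse 45) to 904 (vehicle mouse 38) without a mouse, with 31 without FGF1 mouse 37. DESeq2 called 58 of the 425 genes to which it gave an adjusted p, 3 of the 4 it could judge among the 53.
The difference between days went from 0 to 152 genes without the filter and 3 with DESeq2, and stayed at 0 when any single mouse was left out. The 15 genes that differed from tanycytes became 0 without the block of mouse, 6 with RLE scaling, 7 with DESeq2 and 0 to 8 without a mouse. The 0 against ependymal nuclei became 3 without the filter and 3 with DESeq2, and 0 to 1 without a mouse. Whole-cell calls ran from 831 to 1243 without a mouse, against 1240.
When any 1 mouse was left out, the share of astrocytes differed by -0.534 to 1.265 percentage points on Day 1. On Day 5 it then differed by -1.101 to 0.597, with 0.225 without vehicle mouse 28. As a share of non-neuronal nuclei it differed by 7.72 points on Day 1 (31.4% in FGF1 against 23.7% in vehicle mice, exact permutation p = 0.5). On Day 5 that difference was -5.38 points (27.4% against 32.8%). Apoe turned to -1.46. None of the 50 called Day 1 genes and 13 called Day 5 genes named here kept its call under every alternative, and none reversed. The cause was not tested.
Whether shared replicate numbers or batches pair FGF1 and vehicle mice could not be settled. Deviations from the group mean correlated at -0.139, -0.504 and 0.522 between same-numbered Day 1 mice. Between mice of the same batch they correlated at -0.663, 0.0702 and -0.576. Such deviations sum to 0 in each group, so mixed signs are partly built in. The fit with the replicate block called 107 genes, 91 of the 94, without Spry2. What could be seen is limited by 33 to 57 astrocyte nuclei in 4 of the libraries, by 4 mice on Day 5 and by medians of 2057 to 3949 UMIs per nucleus.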

Other observations

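Cholesterol synthesis showed a Day 5 pattern that the comparison of nuclei does not resolve. Of 19 genes of the pathway tested in whole-cell astrocytes 14 were lower in FGF1 mice and none higher, with a list median of -0.75 on the log2 scale against -0.02 over all genes and 6.06% of all genes lower. Msmo1, a sterol demethylase, ran from 106 to 248 CPM (median 137) in 6 FGF1 mice and from 218 to 398 CPM (median 331) in 6 vehicle mice, and fell by 0.98 (SE 0.22, edgeR FDR 0.01314). Sqle, squalene epoxidase, ran from 30.4 to 50.8 CPM against 31.7 to 92.1 CPM and fell by 0.88 (SE 0.18, edgeR FDR 0.002595). In Day 5 nuclei 13 of 14 tested genes of the list had negative values (median -0.43) and edgeR called none (0 at an unadjusted p under 0.05, and DESeq2 gave no adjusted p), and on Day 1 6 of 11 were negative (median -0.02). Abca1, which exports cholesterol, was higher in whole cells (0.92 ± 0.15, edgeR FDR 0.0003417), at 197 to 341.5 CPM against 110.2 to 198.5 CPM, and had 213 and 246 CPM against 111 and 113 CPM in Day 5 nuclei (1.05 ± 0.37, FDR 0.207).

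Genes that astrocytes secrete onto synapses all had positive values in Day 5 nuclei, 11 of 11 tested (median 0.63), and edgeR called none (4 at an unadjusted p under 0.05, and DESeq2 called Clu). Over all genes 4153 of 8484 were positive that day. Astrocyte label markers also summed higher in Day 5 FGF1 nuclei (5420.5 to 5436 CPM against 3713 to 3955 CPM), so the sign is not particular to this list. In whole cells 4 of 12 were higher, Clu, Cpe, Psap and Sparcl1, where 6.55% of all genes were. Inhibitors of differentiation, targets of BMP signals, were higher there for Id1 (0.85 ± 0.13 on the log2 scale, SE, edgeR FDR 9.457e-05), Id3 (1.38 ± 0.24, FDR 0.00391) and Id4 (0.80 ± 0.20, FDR 0.0167), while Id2 was not called (0.41 ± 0.15, FDR 0.0749).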
